A study of Mus musculus with 8 samples.

Results

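The nuclear-encoded subunits of the mitochondrial respiratory chain and ATP synthase were followed in 2 regions of the mouse retina, superior and inferior, with and without hyperoxia. Members were chosen by gene symbol from the platform annotation, without use of any measured difference: *Nduf* genes (complex I), *Sdh* genes (complex II), *Uqcr* genes (complex III), *Cox4* to *Cox8* genes (complex IV) and *Atp5* genes (complex V). Of 19938 genes that had a probe set with a single symbol, 81 matched, namely 35 of complex I, 4 of complex II, 8 of complex III, 17 of complex IV and 17 of complex V. They came from 105 probe sets, and where a gene had several, the one with the highest mean over all arrays stood for it. No filter on low values was applied, so all 81 members were tested. Of these, *Cox7a2l* is counted with complex IV by its name, although its product is known as a factor that joins complexes III and IV. *Ndufa4* and *Ndufa4l2* are counted with complex I by name, although the *Ndufa4* product is now placed in complex IV.

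The mice were C57BL/6J, raised in dim cyclic light. The 4 groups were control superior, control inferior, hyperoxia superior and hyperoxia inferior, each with 2 Affymetrix Mouse Gene 1.0 ST arrays. Hyperoxia mice were 83 to 90 days old when 14 days in 75% oxygen began, and the age-matched control mice stayed at normoxia. Each sample pooled retinal RNA of 2 animals, 1 male and 1 female by the labels, and no source says whether the regions in different groups came from the same animals. Every p-value rests on the spread among such pools alone, and with 2 arrays per group the precision is limited by their number.

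Complexes I and II feed electrons from NADH and from succinate into the chain, complex III passes them to cytochrome c, complex IV hands them to oxygen, and complex V, the ATP synthase, uses the resulting proton gradient to make ATP. The retina consumes much oxygen, and most of its mitochondria lie in the inner segments of photoreceptors. Several subunits of complex IV exist as isoforms whose use depends on tissue or oxygen supply. The subunits encoded in mitochondrial DNA are outside the symbol rule.

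The values are log2 signals as the authors deposited them, and a difference of 1 on this scale is a 2-fold difference in signal. A value depends on the probes as well as on the transcript, so the order of genes by value is an order of array signal and not of abundance. The median over all 28853 probe sets lay between 6.98 and 7.05 on the 8 arrays. All 15 measured rod markers, the commonest cells of the mouse retina, had a mean of 10.47 or more. Lens markers (15 genes) lay highest on control inferior replicate 2, where their median was 3.29 above the gene means, and between -0.84 and 0.07 on the other arrays. Retinal pigment epithelium markers (12 genes) lay lowest on control superior replicate 1, at -0.91, and highest on hyperoxia superior replicate 2, at 0.54. In bulk samples, fewer cells of a type and less RNA per cell cannot be told apart.

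No transcript of the respiratory chain differed between groups past the test. Their mean log2 values ran from 3.48 for *Cox7b2* to 13.12 for *Atp5b*, and 71 of 81 members had a mean of 8 or more. Replicates lay close together, with a median residual SD of 0.088 against 0.110 over all probe sets. No member passed an adjusted p of 0.05 (limma, Benjamini-Hochberg over all 28853 probe sets) in any of the 7 comparisons made. With the methods' t-test, an unmoderated contrast over all arrays likewise adjusted, none did either. Over all probe sets, limma called between 0% and 0.568% in these comparisons, so 0 of 81 members is near the background share. The 95% interval of every member's difference stayed within 1 log2 unit of 0 in each of these comparisons.

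**Figure D1:**
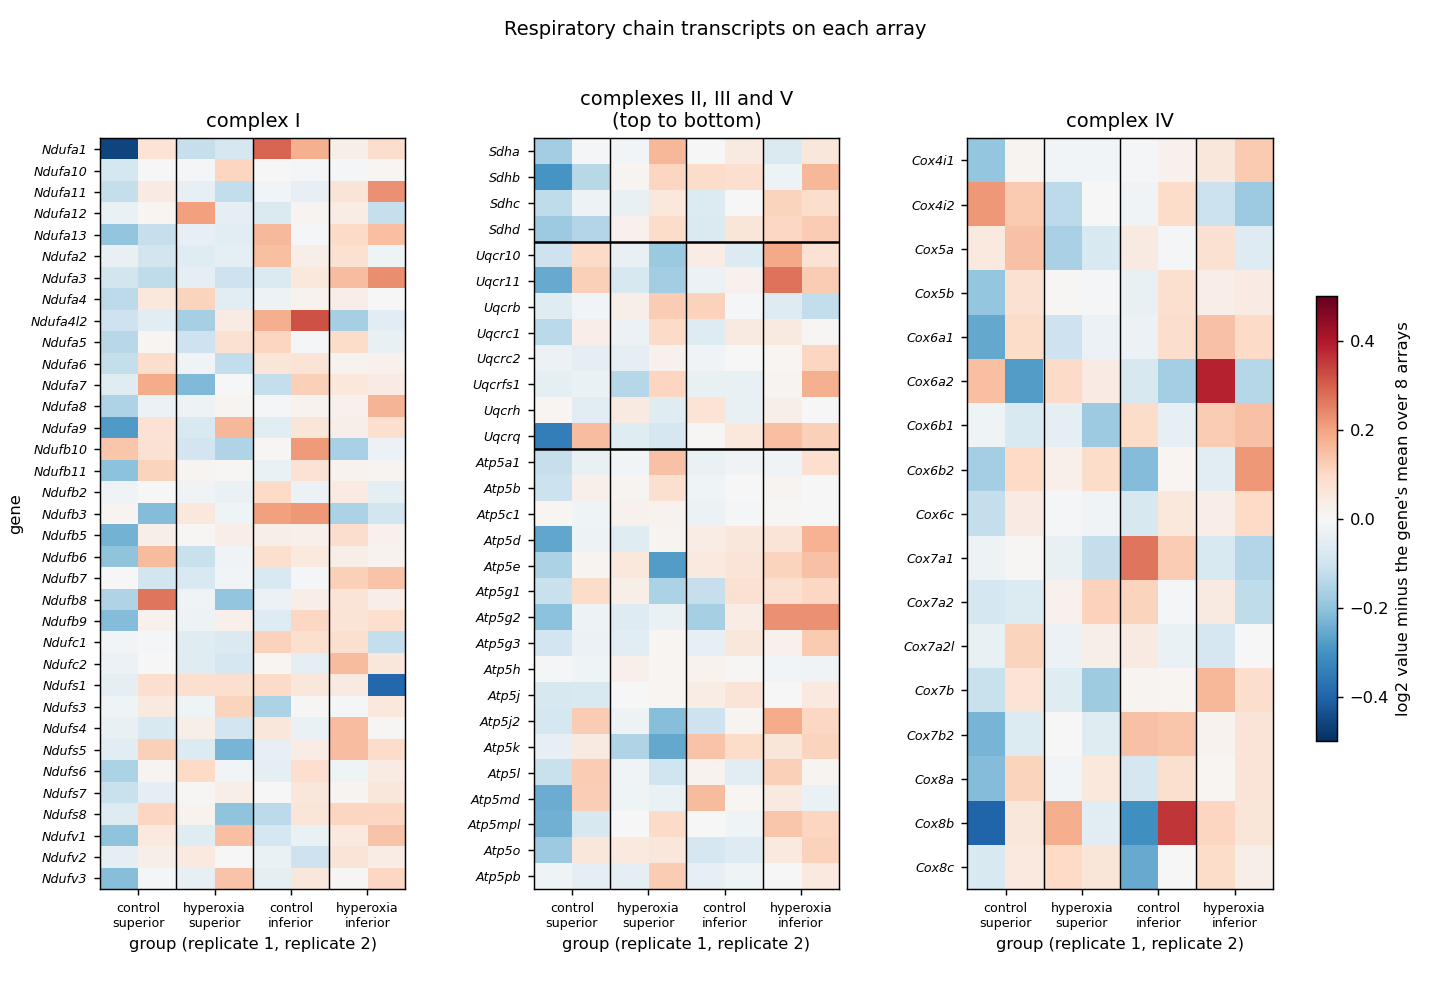
Log2 value of each of the 81 members on each of the 8 arrays, minus the gene's own mean over the arrays. Rows are genes by complex, columns are arrays by group with replicate 1 on the left, and red is above and blue below the gene mean. The leftmost column, control superior replicate 1, is blue for most genes and holds the lowest value of 39 of 81 members.

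In the inferior retina, 53 of 81 members had a higher mean after hyperoxia and 28 a lower one, and the median difference was 0.05 on the log2 scale (1.03-fold), against 0.01 over all probe sets. At the adjusted threshold 0 of 81 members were called, with a background of 0.492% of all probe sets. At an unadjusted p under 0.05 by limma, 2 members were higher and 3 lower, where the background by limma was 9.39%. The methods' t-test had 9 in all. Its own background is not given here or below, and each background at this threshold is that of limma. Both hyperoxia arrays lay above both control arrays for 31 members (38.3%), against 20.5% of all probe sets. Both lay below for 13 members, against 18.1%. The share separated upwards was thus above the background share, while no single difference passed the test. The lowest bound of any member's interval was -0.60, for *Ndufa4l2* (0.660-fold), and the highest was 0.67, for *Cox6a2* (1.59-fold). For 73 of 81 members the whole interval lay within 0.5 of 0. Without control inferior replicate 1 the median over members was 0.02, and without control inferior replicate 2 it was 0.07.

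In the superior retina, 57 of 81 members had a higher mean after hyperoxia, and the median difference was 0.04, against 0.00 over all probe sets. Again 0 of 81 were called, with a background of 0.0173%. At an unadjusted p under 0.05 by limma, 2 members were higher and 3 lower, with a background of 5.59% by limma. The methods' t-test had 8 in all. The arrays did not overlap for 14 members that were higher, against a background of 18.7%, and for 9 that were lower, against 17.2%. Intervals ran from -0.48 for *Ndufb8* to 0.74 for *Cox8b*, and 78 of 81 lay within 0.5 of 0. The sign of the median rested on 1 array: without control superior replicate 1 it was -0.012, with 43.2% of members higher. With the pigment epithelium markers as a covariate it was -0.07 in superior and -0.01 in inferior retina. In the superior retina this covariate was -0.91 and -0.18 on the control and 0.46 and 0.54 on the hyperoxia arrays. It is thus largely confounded with the treatment there, and the adjusted median cannot separate the 2. The 12 pigment epithelium markers were all higher in the superior retina after hyperoxia, with a median difference of 1.16 (10 at an unadjusted p under 0.05 by limma, 0 called). All 8 ganglion cell markers were lower there (median -0.23, 3 at an unadjusted p under 0.05), as were all 8 bipolar cell markers (median -0.17, 1 at an unadjusted p under 0.05), and 0 of either list were called. All 15 microglia and macrophage markers were higher (median 0.49, 1 called). The part of the ganglion cell, bipolar cell and microglia markers in the members' values was not tested.

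Control superior replicate 1 stood apart for these genes. It held the lowest of the 8 values for 39 of 81 members (48.1%), whereas it held the lowest value for 12.7% of all probe sets. The median of the members, each centred on its own mean, was -0.11 on that array and 0.02 on control superior replicate 2. On the hyperoxia superior arrays it was -0.02 and -0.01. On the control inferior arrays it was -0.01 and 0.03, and on the hyperoxia inferior arrays 0.04 and 0.06. The hyperoxia inferior arrays thus lay above the other 6, of which control inferior replicate 2 came nearest. The pigment epithelium markers were also lowest on control superior replicate 1, and their part in the members' low values was not tested beyond the covariate.

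**Figure D2:**
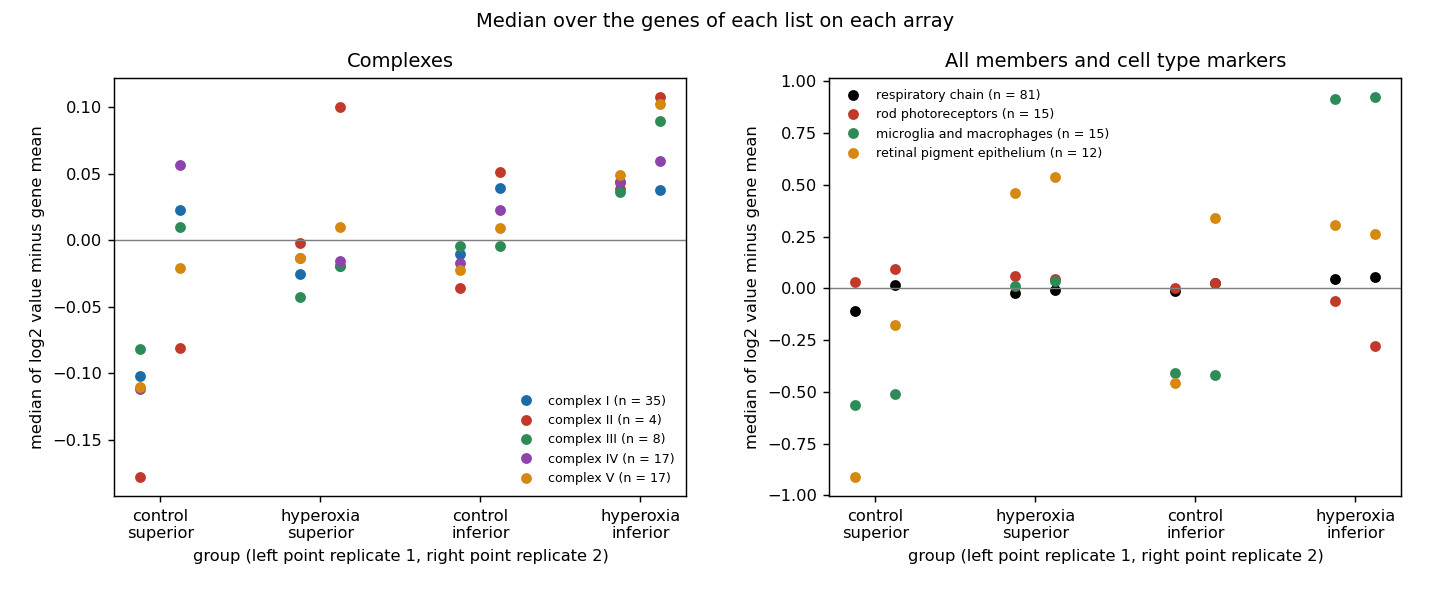
Median over the genes of each list on each array, each gene as its log2 value minus its mean over the 8 arrays. Left, the 5 complexes, where control superior replicate 1 is lowest and the hyperoxia inferior arrays lie between 0.04 and 0.11. Right, on a wider axis, all 81 members beside markers of 3 cell types, where microglia and macrophage markers reach 0.91 and 0.92 on the hyperoxia inferior arrays and the members stay between -0.11 and 0.06.

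Markers of other cell types were examined on the same arrays. All 15 microglia and macrophage markers were higher in the inferior retina after hyperoxia, with a median difference of 1.29, and 12 were called (limma). Rod markers had a median difference of -0.18 there, and 14 of 15 were lower, although 0 passed (smallest adjusted p = 0.136 by limma, 5 at an unadjusted p under 0.05). The median of the rod markers was -0.06 on hyperoxia inferior replicate 1 and -0.28 on replicate 2. On the same arrays the members' median was 0.04 and 0.06. The part of these marker differences in the members' values was not tested.

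**Figure D3:**
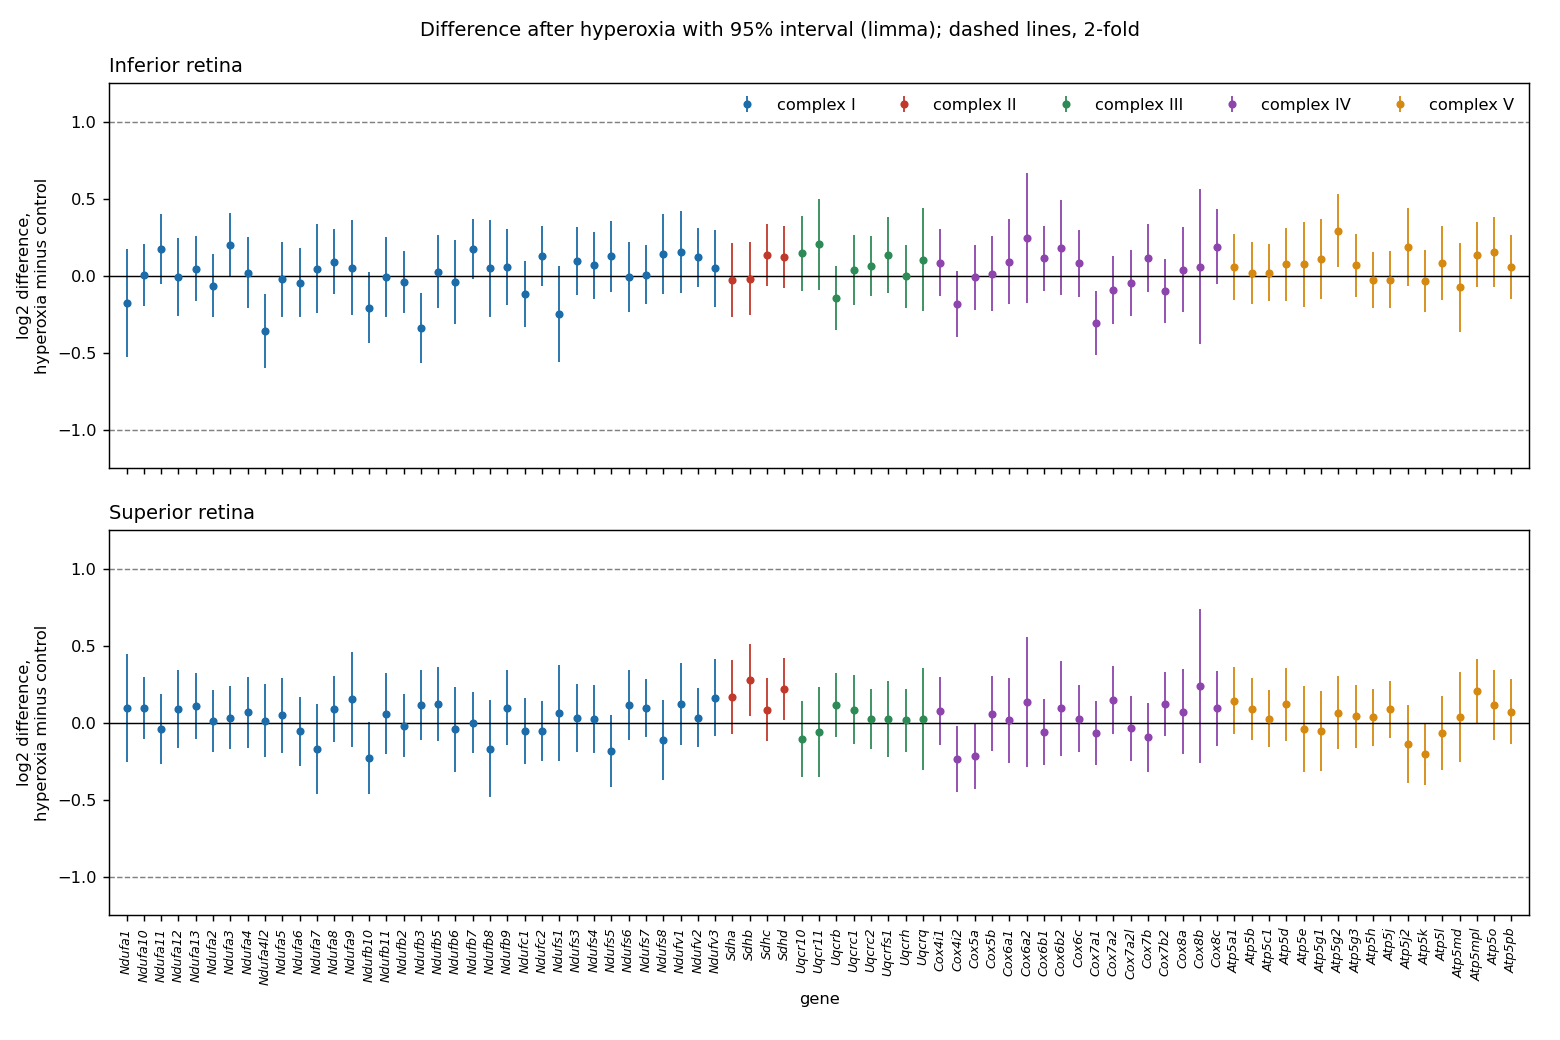
Log2 difference of hyperoxia minus control for each of the 81 members, with the 95% interval from limma, in the inferior retina (top) and the superior retina (bottom), coloured by complex. Dashed lines mark a 2-fold difference. No interval reaches these lines.

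Complex I, the entry point for electrons from NADH, held the 2 members with the lowest differences in the inferior retina after hyperoxia, *Ndufa4l2* and *Ndufb3*. Of its 35 members, 21 were higher in the inferior retina after hyperoxia (median 0.03) and 24 in the superior retina (median 0.03). *Ndufv1*, which carries the NADH binding site, differed by 0.16 (95% interval -0.11 to 0.42) in inferior and 0.12 (-0.14 to 0.39) in superior retina. *Ndufs3*, a core subunit of the arm that carries the iron-sulphur clusters, differed by 0.10 (-0.12 to 0.32) and 0.03 (-0.19 to 0.25). *Ndufs1*, the largest subunit of that arm, was 10.54 on hyperoxia inferior replicate 1 and 10.10 on replicate 2, against 10.59 and 10.55 in the control inferior retina. The lower mean of *Ndufs1* (difference -0.25, interval -0.56 to 0.06) came mostly from 1 array.

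*Ndufa4l2* had the smallest p of all members in the inferior retina. Its signal was dim, with a mean log2 value of 5.68, and it was among the 2 members with a mean under 6. It is a relative of *Ndufa4* known as a gene induced by low oxygen through HIF-1. Its log2 values were 5.86 and 6.00 in the control inferior retina and 5.51 and 5.63 after hyperoxia. Superior values were 5.58 and 5.63 in control mice and 5.51 and 5.72 after hyperoxia. The control inferior arrays were thus above the other 6, and the groups overlapped in the superior retina. The inferior difference was -0.36 (SE 0.10, 0.779-fold, unadjusted p = 0.0082 and adjusted p = 0.279 by limma), and the superior difference was 0.01 (interval -0.23 to 0.25). With the lens markers, which were high on control inferior replicate 2, as a covariate, the inferior difference was -0.30 (adjusted p = 0.366 by limma). Over the 19 alternatives that kept the gene the difference ran from -0.43 to -0.29, and the filters on dim values left it out. *Ndufa4* itself was 12.45 and 12.50 in the control inferior retina and 12.51 and 12.48 after hyperoxia, a difference of 0.02 (-0.21 to 0.25).

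*Ndufb3*, an accessory subunit of the membrane arm, came next to *Ndufa4l2* and *Cox7a1* by p in the inferior retina. Its values were 8.47 and 8.48 in the control inferior retina and 8.11 and 8.17 after hyperoxia, with no overlap. Superior values were 8.28 and 8.05 in control and 8.32 and 8.24 in hyperoxia arrays, so that the control replicates themselves were 0.23 apart. The inferior difference was -0.34 (SE 0.10, adjusted p = 0.289 by limma) and the superior one 0.12 (interval -0.11 to 0.34). *Ndufb10*, another subunit of the membrane arm, was lower after hyperoxia in both regions: 7.72 and 7.92 became 7.54 and 7.68 in the inferior retina, and 7.85 and 7.78 became 7.61 and 7.56 in the superior retina. Over both regions its difference was -0.22 (SE 0.07, adjusted p = 0.391 by limma). *Ndufa3*, a small membrane subunit, was the complex I member with the highest difference in the inferior retina, at 0.20 (SE 0.09, adjusted p = 0.533), from 9.37 and 9.49 to 9.59 and 9.67.

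Complex II, succinate dehydrogenase, also belongs to the tricarboxylic acid cycle and is encoded entirely in the nucleus. In the superior retina all 4 members were higher after hyperoxia (median 0.19), and 2 of them were among the 3 members with the smallest p. *Sdhb*, the iron-sulphur subunit, was 8.50 and 8.66 in the control superior retina and 8.81 and 8.91 after hyperoxia. In the inferior retina it was 8.89 and 8.88 in control and 8.77 and 8.97 in hyperoxia arrays. The control superior arrays were thus the lowest of the 4 groups, and the other 6 lay between 8.77 and 8.97. The superior difference was 0.28 (SE 0.10, 1.21-fold, adjusted p = 0.849 by limma) and the inferior one -0.02 (interval -0.25 to 0.22).

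*Sdhd*, one of the membrane anchors, was 9.53 and 9.57 in the control superior retina and 9.74 and 9.81 after hyperoxia. In the inferior retina it was 9.64 and 9.77 in control and 9.82 and 9.84 in hyperoxia arrays. Hyperoxia arrays lay above control arrays in both regions. The differences were 0.22 (SE 0.09, adjusted p = 0.869) in superior and 0.12 (interval -0.08 to 0.32) in inferior retina, and 0.17 (SE 0.06, adjusted p = 0.439 by limma) over both. *Sdhc*, the other anchor, differed by 0.08 (-0.12 to 0.29) and 0.13 (-0.07 to 0.34) in the superior and inferior retina. *Sdha*, the flavoprotein that oxidizes succinate, differed by 0.17 (-0.07 to 0.41) and -0.03 (-0.27 to 0.21). All 4 members were lowest on control superior replicate 1, the array on which the whole set was low. Without that array the superior difference was 0.20 for *Sdhb* and 0.20 for *Sdhd*, and with the pigment epithelium covariate it was 0.18 and 0.10.

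Upstream windows of *Sdhb* and *Sdhd* are shown because these 2 subunits of one enzyme were among the 3 members with the smallest p in the superior comparison, beside that of *Cox7a1*, one of the 3 leading members of the inferior comparison. Each holds the 250 bases before the annotated start of the gene, read 5′ to 3′ in the direction of the gene, from RefSeq on GRCm38.p6. Capitals mark matches, on either strand, to the core motif of NRF-1 (GCGCANGC) or of GABP, also called NRF-2 (CCGGAAG). Both factors are known regulators of respiratory chain genes.
Sdhb, chr4:140961021-140961270 (+ strand): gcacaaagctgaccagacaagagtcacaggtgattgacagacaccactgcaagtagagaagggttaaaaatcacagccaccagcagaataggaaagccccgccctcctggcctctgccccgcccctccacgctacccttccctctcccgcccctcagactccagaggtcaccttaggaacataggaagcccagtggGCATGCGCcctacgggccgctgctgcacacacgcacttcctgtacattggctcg
Sdhd, chr9:50603850-50604099 (- strand): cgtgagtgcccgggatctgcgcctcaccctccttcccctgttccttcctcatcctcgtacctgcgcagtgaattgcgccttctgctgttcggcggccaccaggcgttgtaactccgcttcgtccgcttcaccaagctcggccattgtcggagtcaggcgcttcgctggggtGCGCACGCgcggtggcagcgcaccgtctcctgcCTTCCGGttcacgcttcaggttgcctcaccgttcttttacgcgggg
Cox7a1, chr7:30183921-30184170 (+ strand): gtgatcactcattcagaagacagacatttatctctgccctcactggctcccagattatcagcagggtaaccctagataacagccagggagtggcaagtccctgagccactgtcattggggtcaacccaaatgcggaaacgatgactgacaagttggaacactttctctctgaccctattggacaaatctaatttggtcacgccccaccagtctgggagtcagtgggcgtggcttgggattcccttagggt

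The *Sdhb* window held 1 NRF-1 match, and that of *Sdhd* held 1 NRF-1 and 1 GABP match. The window of *Cox7a1*, a muscle isoform, held neither. The same was true of the windows, not shown, of *Cox7a2*, its general form, and of *Ndufb3*, another leading member of the inferior comparison. Windows were found for 66 of 81 members. The NRF-1 core was in 17 of these (25.8%), against 9.38% of the 27025 genes with a window of this length, and the GABP core was in 12 (18.2%), against 7.83%. The core of the YY1 motif (AAGATGGC) was in 1 member (1.52%, against 1.83%). The HIF core (ACGTG), which also lies within the E-box CACGTG, was in 14 members (21.2%, against 18.5%). At least 1 of the NRF-1, GABP and YY1 cores was in 37.9% of members with a window and in 17.1% of all genes with one. These counts describe the letters only, and binding was not measured.

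Complex III, which passes electrons from ubiquinol to cytochrome c, had no member at an unadjusted p under 0.05 in either region after hyperoxia. Of its 8 members 6 were higher in the inferior (median 0.08) and 6 in the superior retina (median 0.02). *Uqcrc1*, a core protein, differed by 0.04 (-0.19 to 0.26) in inferior and 0.08 (-0.14 to 0.31) in superior retina, and *Uqcrc2*, its partner, by 0.06 (-0.13 to 0.26) and 0.02 (-0.17 to 0.22). *Uqcrfs1*, the Rieske iron-sulphur protein, was 8.51 and 8.51 in the control inferior retina and 8.56 and 8.72 after hyperoxia, a difference of 0.13 (-0.11 to 0.38). *Uqcr11*, a small subunit with a mean signal of 8.29, differed by 0.20 in the inferior retina, and *Uqcrb*, with a mean signal of 11.34, by -0.14. Neither passed, with a smallest adjusted p of 0.679 in this complex and comparison (limma).

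Complex IV, cytochrome c oxidase, reduces oxygen to water. None of its 17 members passed the test. After hyperoxia, 3 of 17 were lower without overlap in each region, where the backgrounds over all probe sets were 18.1% in inferior and 17.2% in superior retina, and 5 and 3 were higher without overlap. These counts of lower members are near the background shares. The isoforms *Cox4i2* and *Cox7a1*, tied to particular tissues, were among the lower members in both regions. For *Cox7a1* in the superior retina the nearest values were 7.41 in control and 7.40 in hyperoxia arrays. Means of other tissue isoforms, *Cox6a2*, *Cox8c* and *Cox6b2*, were higher in the inferior retina, by 0.25, 0.19 and 0.18. *Cox4i1*, the general form of subunit 4, was 10.39 and 10.41 in the control inferior retina and 10.45 and 10.52 after hyperoxia, a difference of 0.09 (-0.13 to 0.31), and differed by 0.07 (-0.15 to 0.29) in the superior retina. *Cox4i2* is the isoform of that subunit known from lung and from oxygen-sensing cells. Its values were 8.36 and 8.28 in the control superior retina and 8.02 and 8.15 after hyperoxia. In the inferior retina they were 8.13 and 8.24 in control and 8.04 and 7.97 in hyperoxia arrays.

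The hyperoxia arrays of *Cox4i2* lay below the control arrays in both regions. The difference was -0.24 (SE 0.09, 0.848-fold, adjusted p = 0.863) in superior and -0.18 (interval -0.40 to 0.03) in inferior retina, and over both regions -0.21 (SE 0.07, adjusted p = 0.366 by limma), with the smallest p of any member in that comparison. *Cox7a1*, the heart and skeletal muscle form of subunit 7a, was 7.70 and 7.56 in the control inferior retina and 7.36 and 7.29 after hyperoxia. Its superior values were 7.41 and 7.44 in control and 7.40 and 7.32 in hyperoxia arrays. The control inferior arrays stood above the other 6. The inferior difference was -0.31 (SE 0.09, 0.807-fold, adjusted p = 0.287) and the superior one -0.07 (interval -0.28 to 0.14). *Cox7a2*, the general form, differed by -0.09 (-0.31 to 0.13) and 0.15 (-0.08 to 0.37).

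**Figure D4:**
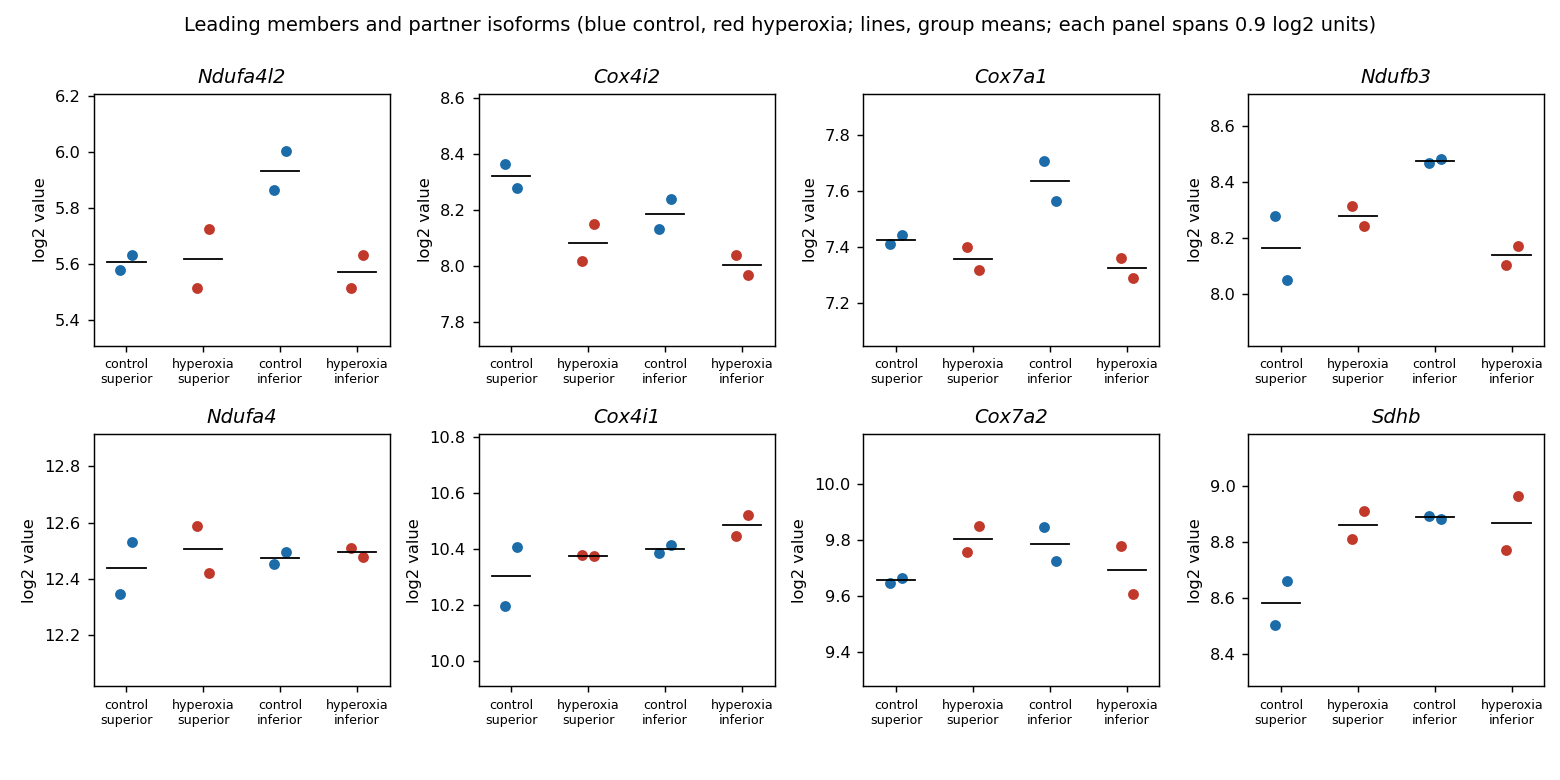
Log2 value on each array of 5 members with the smallest p values after hyperoxia (*Ndufa4l2*, *Cox4i2*, *Cox7a1*, *Ndufb3*, *Sdhb*) and of the partner genes *Ndufa4*, *Cox4i1* and *Cox7a2*. Blue points are control and red points hyperoxia, the lines are group means, and every panel spans the same range. The control inferior arrays stand above the rest for *Ndufa4l2*, *Cox7a1* and *Ndufb3*, and the control superior arrays below the rest for *Sdhb*.

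The remaining isoforms had intervals that took in 0 in the inferior retina. *Cox6a1*, the general form of subunit 6a, differed by 0.09 (-0.18 to 0.37) in the inferior retina, and *Cox6a2*, its muscle form, by 0.25 (-0.18 to 0.67), with 7.28 and 6.76 on the hyperoxia inferior replicates. *Cox8a*, the general form of subunit 8, differed by 0.04 (-0.24 to 0.32). *Cox8b*, another muscle form, had the largest residual SD of the members (0.297), with 6.38 and 7.04 on the control inferior replicates and a difference of 0.06 (-0.44 to 0.56). *Cox8c*, known from testis, differed by 0.19 (-0.06 to 0.43). *Cox6b1* and the testis form *Cox6b2* differed by 0.11 (-0.10 to 0.33) and 0.18 (-0.13 to 0.49). For *Cox7b* and its relative *Cox7b2* the differences were 0.11 (-0.11 to 0.34) and -0.10 (-0.31 to 0.11), and the values of *Cox7b2* lay between 3.25 and 3.63. The 2 probe sets of *Cox7b* gave 0.11 and 0.36, the higher from the dimmer one (mean signal 8.31). Their smallest adjusted p in any comparison was 0.286 (limma), and in the superior retina they gave -0.10 and 0.04. *Cox7a2l*, the supercomplex factor, differed by -0.05 (-0.26 to 0.17). *Cox6c*, with a mean signal of 11.60, differed by 0.08 (-0.14 to 0.30). Of the subunits at the core of assembly, *Cox5a* differed by -0.01 (-0.22 to 0.20) in inferior and -0.22 (-0.43 to -0.0039) in superior retina, and *Cox5b* by 0.01 (-0.23 to 0.26) and 0.06 (-0.19 to 0.30).

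Markers of tissues in which these isoforms are known were read beside them. The 16 striated muscle markers had a median difference of 0.05 in the inferior retina after hyperoxia, with 12 higher and 0 called (0 at an unadjusted p under 0.05 by limma). A list of 14 pericyte and smooth muscle genes, put together after the values of *Ndufa4l2* and *Cox4i2* had been seen, had a median difference of -0.06 in inferior and 0.08 in superior retina, with 0 called and 0 at an unadjusted p under 0.05 (limma) in either.

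Complex V, the ATP synthase, was the complex with the highest share of members above control in the inferior retina, 13 of 17 (median 0.07), and 12 of 17 were higher in the superior retina (median 0.04). *Atp5b*, the catalytic beta subunit, was 13.10 and 13.12 in the control inferior retina and 13.13 and 13.12 after hyperoxia, a difference of 0.02 (-0.18 to 0.22), and differed by 0.09 (-0.11 to 0.29) in the superior retina. *Atp5c1*, the gamma subunit that turns inside the catalytic head, differed by 0.02 (-0.16 to 0.20) and 0.03 (-0.16 to 0.21). *Atp5o*, part of the stalk that holds the head, differed by 0.16 (-0.07 to 0.38) and 0.11 (-0.11 to 0.34).

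*Atp5g1*, *Atp5g2* and *Atp5g3* encode the same membrane ring subunit and differ in their targeting peptides. By the probe set that stood for each gene, *Atp5g2* had the highest difference of all members in the inferior retina. Its values were 10.98 and 11.18 in control and 11.37 and 11.37 in hyperoxia arrays, without overlap. In the superior retina they were 10.94 and 11.12 in control and 11.08 and 11.11 in hyperoxia arrays. The inferior difference was 0.29 (SE 0.10, 1.23-fold, adjusted p = 0.409 by limma), and over its 3 probe sets it ranged from 0.20 to 0.29. *Atp5g1* differed by 0.11 (-0.15 to 0.37) and *Atp5g3* by 0.07 (-0.14 to 0.27) there. *Atp5e*, the epsilon subunit, had a mean signal of 8.87 and was 8.92 and 8.93 in the control inferior retina and 8.98 and 9.02 after hyperoxia.

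The 2 regions of the retina were compared with and without hyperoxia, since the inferior region is the more vulnerable to it. In control retinas 61 of 81 members had a higher mean in the inferior region (median 0.06, against 0.00 over all probe sets). None was called, with a background of 0%. At an unadjusted p under 0.05 by limma there were 7, all higher in the inferior region, where the background by limma was 5.3%. There were 10 by the unmoderated contrast over all arrays, and 3 by the 2-sample test on the control arrays that the methods name here. Without overlap 25 members were higher, against 17.5% of all probe sets, and 2 lower, against 16.7%. This pattern too rested on control superior replicate 1: without it the median was -0.0031 and 45.7% of members were higher in the inferior region. With the pigment epithelium covariate the median was 0.0037 and 50.6% were higher. The 3 members with the smallest p were *Cox7b2* (difference 0.29), *Ndufb3* (0.31) and *Ndufa4l2* (0.33), each with an adjusted p of 0.901 (limma). *Cox7b2* and *Ndufa4l2* were the 2 members with a mean log2 value under 6. The control inferior arrays enter this comparison and that of hyperoxia in the inferior retina, so the 2 are not independent for *Ndufb3* and *Ndufa4l2*. *Ndufa1*, a small accessory subunit of complex I, had the largest difference, 0.43 (0.08 to 0.78), with 9.22 and 9.75 in the superior and 9.97 and 9.86 in the inferior region.

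In hyperoxia-exposed retinas 60 of 81 members had a higher mean in the inferior region (median 0.05). Leaving out each hyperoxia array in turn kept the median between 0.05 and 0.06, and leaving out a control array cannot change it. Over all alternatives the median ran from 0.03 to 0.09. At the adjusted threshold 0 were called, with a background of 0.139%. At an unadjusted p under 0.05 by limma there were 9, all higher in the inferior region, with a background of 8.5% by limma. The methods' t-test had 9 as well. Both inferior arrays lay above both superior arrays for 37 members, against 20% of all probe sets, and below for 6, against 18.5%. Between the same arrays 14 of 15 rod markers were lower in the inferior region (median -0.23, 8 at an unadjusted p under 0.05, 0 called), and all 8 ganglion cell markers were higher (median 0.24, 4 at an unadjusted p under 0.05, 0 called). All 15 microglia and macrophage markers were higher too (median 0.97, 10 called). The part of these marker differences in the members' values was not tested. *Atp5k*, the e subunit of ATP synthase, was 9.03 and 8.92 in the superior and 9.24 and 9.29 in the inferior region (difference 0.29, SE 0.09, adjusted p = 0.443 by limma). *Ndufa3* was 9.39 and 9.33 in the superior and 9.59 and 9.67 in the inferior region (difference 0.27, adjusted p = 0.477). *Ndufs5*, a small accessory subunit, was 9.49 and 9.32 against 9.71 and 9.65 (difference 0.28, adjusted p = 0.545).

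Averaged over both oxygen conditions, 66 of 81 members were higher in the inferior region (median 0.07, or 0.03 without control superior replicate 1). None was called, with a background of 0.0173%. The methods' t-test had 8 at an unadjusted p under 0.05. By limma there were 6, with a background of 7.87% by limma. The first 3 were *Atp5k* (0.20), *Ndufa13* (0.20), whose product is also known as GRIM-19, and *Ndufa3* (0.19), with adjusted p values between 0.521 and 0.548. Over both regions, hyperoxia arrays had a higher mean for 61 of 81 members (median 0.04, or 0.01 without control superior replicate 1 and 0.07 without control superior replicate 2). With the pigment epithelium markers as a covariate this median was -0.031, with 35.8% of members higher. Here 0 were called, with a background of 0.568%. The methods' t-test had 8 at an unadjusted p under 0.05. By limma there were 7, 3 higher and 4 lower, with a background of 8.98% by limma. The 4 lower members were *Cox4i2*, *Ndufb10*, *Cox7a1* and *Ndufa4l2*, and the 3 higher ones *Sdhd*, *Atp5mpl* and *Atp5g2*.

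Whether hyperoxia acted differently in the 2 regions was tested by the interaction. Among the members 0 were called, with a background of 0.00347%. The methods' t-test had 5 at an unadjusted p under 0.05. By limma there were 2, with a background of 6.04% by limma. These were *Ndufb3* (-0.45, SE 0.14, adjusted p = 0.715 by limma) and *Ndufa4l2* (-0.37, SE 0.15, adjusted p = 0.806), and *Ndufs5* followed with 0.31. The median over members was -0.0046, and 52 of 81 intervals lay within 0.5 of 0. The inferior and the superior change had the same sign for 49 members, both higher for 39 and both lower for 10, and opposite signs for 32. Across the members the 2 changes had a Pearson correlation of 0.07 and a Spearman correlation of -0.01, a description over genes that were measured on the same arrays and are not independent replicates.

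No gene of other mitochondrial lists passed the test after hyperoxia either. In the inferior retina after hyperoxia 0 of 42 assembly factors, 0 of 17 genes of the tricarboxylic acid cycle and pyruvate dehydrogenase, 0 of 20 carriers, channels and import genes, 0 of 20 biogenesis regulators and 0 of 7 other chain genes were called by limma. At an unadjusted p under 0.05 there were 3, 0, 1, 3 and 1 of them. Over all probe sets limma called 0.492% there and had 9.39% at an unadjusted p under 0.05. Their medians were 0.02, 0.00, -0.02, 0.00 and 0.03 on the log2 scale. In the superior retina none of these lists had a called gene either, against 0.0173% of all probe sets. There 1 gene in all was at an unadjusted p under 0.05, *Suclg2* of the cycle, at 0.55, against 5.59% of all probe sets by limma.

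Among them, *Ndufaf6*, an assembly factor of complex I, had the smallest adjusted p in the inferior retina (0.136), with 7.08 and 7.09 in control and 7.56 and 7.50 in hyperoxia arrays. *Higd1a*, a chain-associated gene induced by low oxygen, was 8.89 and 8.83 in control and 8.37 and 8.53 in hyperoxia arrays (difference -0.41, adjusted p = 0.314). *Cycs*, cytochrome c, differed by 0.05, and *Ppargc1a*, a coactivator of mitochondrial biogenesis, by -0.12, neither at an unadjusted p under 0.05. *Nrf1* and *Gabpa*, which encode the factors whose motifs are given above, differed by 0.02 and -0.05.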

How the data were processed

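RNA of 8 retinal samples was hybridised to Affymetrix Mouse Gene 1.0 ST arrays. The values deposited by the authors are on the log2 scale and come from Partek, where the RMA background step was followed by median polish over probes. They were used as they are. Whether arrays were normalized against each other, and the tool versions, is not given in the sources. Of 28853 probe sets, 21789 had 1 gene symbol, 1621 several and 5443 none listed. An Entrez ID linked each of the 81 members to RefSeq genes of GRCm38.p6, with 0 symbols changed, and 16 had more than 1 probe set. For 13 of these 16 genes in inferior and 12 in superior retina, all probe sets gave hyperoxia differences of the same sign. A mean per group was estimated from all arrays together (limma 3.58.1, R 4.3.3, 4 residual degrees of freedom and 4.47 of the prior), and Benjamini-Hochberg adjustment ran over all 28853 probe sets (threshold 0.05). Named were, per comparison, the 3 members with the smallest p where fewer passed, a set of core subunits, the isoforms and the members with the highest and lowest means of each complex. *Ndufa1*, *Atp5mpl*, *Ndufb8* and the genes of the other lists were named after their values were seen. The members and lists were chosen with earlier results of these data known. The scripts were tested on simulated data. The alternatives were quantile normalization, median centring, filters on dim probe sets (mean under 6) and members (mean under 8), 1-symbol probe sets only, averaging a gene's probe sets, only a comparison's own arrays, a variance trend, a block for the replicate number, the methods' t-test (an unmoderated contrast over all arrays and, added after the data were seen, a 2-sample test on the control arrays for the regions of the control retina), a robust prior, covariates for lens and pigment epithelium markers, and leaving out each array. Upstream windows were searched for 4 motifs on both strands.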

Additional observations from a re-analysis of the deposited data

How the results depend on the processing

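No member passed the adjusted threshold under any alternative in any comparison. The 424 values of the leading members under the alternatives all kept their sign. Many alternatives change only the test or the probe sets tested, or leave out an array outside the comparison. These return the main difference of a gene unchanged, so their kept sign was fixed in advance. These members were picked by the smallest p on the same arrays, so their kept sign is no independent support. The largest number of members at an unadjusted p under 0.05 was 15, for the 2 regions averaged over oxygen conditions. There the alternatives ran from 2 to 15 members. The share of all probe sets at this threshold is not given for the alternatives, so no excess is read from these counts. The median over members was less stable. With the pigment epithelium covariate it was -0.013 for hyperoxia in the inferior retina, -0.070 in the superior retina, -0.031 over both regions, 0.0037 for the 2 regions in control retinas and 0.085 for the interaction. This covariate is largely confounded with hyperoxia in the superior retina. A 2-sample test on the control arrays, chosen after seeing the data, left the smallest adjusted p of the members at 0.958. Leaving out each array in turn gave -0.012 to 0.111 for hyperoxia in the superior retina and -0.0031 to 0.124 for the 2 regions in control retinas, where the lower value came without control superior replicate 1 and the higher without control superior replicate 2, and -0.078 to 0.066 for the interaction. The other 134 medians moved by less than the SD of 0.048 between replicates. Many of these did not move at all, since the alternative could not change them. With the replicate number as a block, hyperoxia in the inferior retina had 4 members at an unadjusted p under 0.05 (limma). The smallest adjusted p was 0.209 (limma), and the block changed no call. Each group holds both replicate numbers, so the block cannot change a difference or the median of 0.05. Deviations of same-numbered arrays correlated between -0.02 and 0.14, so the numbers were not taken as pairing. Where only the 4 arrays of a comparison entered, only those comparisons have a value. The number of arrays limits all of this: the median half-width of a member's interval was 0.23 in the comparisons of 2 groups.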
